A study of Mus musculus with 13 samples.

Results

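Transcripts that stood high on the high-fat arrays of a mouse duodenum series and low on all its other arrays were examined in 10 genes: Zbtb7a, Kdm5a, Rest, Nrip1, Resf1, Akap9, Iqgap2, Klf3, Epn1 and Ankhd1. The platform annotation gave exactly 1 symbol to each of their 19 probe sets, out of 22626 probe sets and 12393 genes measured. The genes had been picked because a probe set of each was higher on high-fat diet than on both other diets. Their diet differences are therefore given as a description with no test, whereas differences between genotypes played no part in the choice and were tested.

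The series measured total RNA of duodenum, the first stretch of the small intestine, in wild-type mice and in K-Ras mutant mice that the submitters call ViRas. All mice had a mixed strain background and started their diet at 5 weeks of age, which they kept for 22 weeks until they were killed. Wild-type mice gave 2 arrays on normal diet, 2 on high-fat diet and 1 on high-fat diet to which butyrate was added, and mutants gave 3, 2 and 3. Butyrate is a product of bacterial fermentation. The labels give neither the K-Ras allele nor the promoter or recombinase that limits it to certain cells. The arrays of each diet also carry identifiers from a number range of their own, so diet and array series cannot be told apart. Genotypes were compared within such a series.

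Values are the authors' expression levels from robust multi-array averaging (RMA), on a log2 scale, so a difference of 1 is a doubling. Array medians lay between 6.04 and 6.14, and precision is limited by how few arrays each group holds. The values come from bulk tissue, in which fewer cells of a type and less RNA per cell cannot be told apart. Markers of absorptive enterocytes were abundant, with a mean level per array of 12.16 to 12.29 on high-fat, 11.71 to 12.14 on normal and 11.57 to 11.95 on butyrate diet over 11 of 13 listed genes. Every high-fat array thus lay above every other array in this mean. By limma 3 of the 11 genes rose, 0 fell and 8 did not pass in each comparison of high-fat diet with another diet. Over all genes 12.8% rose and 16.3% fell against normal diet, and 11.5% rose and 20% fell against butyrate. The median difference of the 11 genes was 0.24 against normal diet but -0.04 against butyrate, with -0.03 over all genes in either comparison. Genes of duodenal identity (8 of 10 listed measured) had a mean of 8.56 to 9.41 on high-fat and 8.09 to 8.34 on normal diet without overlap, and of 8.03 to 8.90 with butyrate. Of these 2 rose and 0 fell against normal diet and 3 rose and 0 fell against butyrate. Cybrd1, an iron reductase of the brush border, rose by 3.36 ± 0.54 and 2.81 ± 0.61, and the transcription factor Gata4 by 0.93 ± 0.15 and 1.21 ± 0.17. The means of marker lists for smooth muscle, B and plasma cells, macrophages and dendritic cells, T cells, and Brunner glands and goblet cells overlapped between all diets. Genes of acinar pancreas varied within each diet, from 5.37 to 12.07 on high-fat, 5.79 to 12.32 on normal and 5.22 to 10.68 on butyrate arrays (16 of 22 listed genes measured). The 3′ minus 5′ signal of beta actin, a sign of RNA and labelling quality, was 0.20 to 0.42 on high-fat, 0.63 to 0.73 on normal and 0.27 to 0.70 on butyrate arrays. That of Gapdh overlapped between all diets. The part of these measures in the diet differences below was not tested.

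Most of the 10 genes encode regulators rather than digestive enzymes. Zbtb7a, Rest and Klf3 are zinc finger proteins that bind DNA and recruit co-repressors, Kdm5a removes methyl marks of active promoters from histones, Nrip1 bridges nuclear receptors to repressor complexes, and Resf1 takes part in silencing of retroelements in mouse embryonic stem cells. The others are large adaptors outside chromatin: Akap9 anchors protein kinase A at the Golgi and the centrosome, Iqgap2 is a scaffold that binds calmodulin and actin, Epn1 is an adaptor of clathrin-mediated endocytosis and Ankhd1 is an ankyrin repeat protein known as a cofactor of the Hippo pathway effector Yap.

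Promoter sequences from RefSeq, on build GRCm38.p6, were used for 7 of the 10 genes, in 9 windows of 250 bases before a transcript start. Any window of the 10 genes on a chromosome that was set aside was left out. This filter was not applied to the windows of all genes. Sequences are shown for Zbtb7a, which had the greatest difference, and for Klf3 and Resf1, whose 3 probe sets each separated the high-fat arrays. All 3 windows lie on the plus strand, 5′ to 3′: Zbtb7a at chr10:81136021-81136270, Klf3 at chr5:64803271-64803520 and Resf1 at chr6:149309164-149309413. Capitals mark the GC box (GGGCGG or, on the other strand, CCGCCC) and the CACCC box (CACCC or GGGTG), short motifs that Sp and KLF factors are known to bind, and neighbouring matches may share bases.
Zbtb7a: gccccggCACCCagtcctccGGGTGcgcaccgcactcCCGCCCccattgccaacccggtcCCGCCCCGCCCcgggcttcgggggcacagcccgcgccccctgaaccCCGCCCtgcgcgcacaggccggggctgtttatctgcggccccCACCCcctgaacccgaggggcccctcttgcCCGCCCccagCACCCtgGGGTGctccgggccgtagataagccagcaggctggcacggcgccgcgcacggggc
Klf3: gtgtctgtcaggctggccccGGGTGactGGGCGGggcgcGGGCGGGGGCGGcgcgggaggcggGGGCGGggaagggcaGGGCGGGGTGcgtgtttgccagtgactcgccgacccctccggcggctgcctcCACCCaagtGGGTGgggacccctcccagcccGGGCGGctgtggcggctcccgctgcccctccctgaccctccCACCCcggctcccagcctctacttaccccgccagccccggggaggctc
Resf1: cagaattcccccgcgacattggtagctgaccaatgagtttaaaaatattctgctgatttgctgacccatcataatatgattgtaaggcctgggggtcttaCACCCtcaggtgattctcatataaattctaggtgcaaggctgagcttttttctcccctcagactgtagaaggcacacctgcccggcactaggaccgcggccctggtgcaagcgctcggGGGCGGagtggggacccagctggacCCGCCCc

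In these windows the GC content was 78.0% for Zbtb7a, 78.4% for Klf3 and 54.4% for Resf1, against a median of 52.4% over all 32851 windows of the same length. The Zbtb7a window held 5 GC boxes and 5 CACCC boxes, that of Klf3 6 and 5, and that of Resf1 2 and 1. A GC box was present in 8 of the 9 windows of the 7 genes and in 32.7% of all windows, and a CACCC box in 9 of 9 and in 52.0%. A CCAAT box (CCAAT or ATTGG) occurred in the windows of Akap9 and Resf1 and in 33.8% of all windows. Both windows of Epn1, which overlap each other, held an ETS motif (CCGGAAG or CTTCCGG, 6.91% of all windows) and an E-box (CACGTG, 6.02%). No match to the NRF1 core (GCATGCG or CGCATGC, 3.02% of all windows) or to the cyclic AMP response element (TGACGTC or GACGTCA, 2.78%) was found in the 9 windows. A match describes the letters of a window and is not evidence that a factor binds there.

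Taken by probe set, 17 of the 19 had their lowest high-fat array above the highest of the other 9 arrays, and each of the 10 genes had such a probe set. The same held for 8.21% of all probe sets, and the opposite, with every high-fat array below all others, for 8.81%. The genes were chosen by this pattern, so nothing is read from their count. With each array centred on its median the count was 15 of 19. The mean of the 4 high-fat arrays minus that of the other 9, called the excess here, ranged from 0.07 to 3.49 over the 19 probe sets, with a median of 1.89 against -0.02 over all probe sets. An excess of at least 1 without overlap was found in 16 of the 19 and in 2.59% of all probe sets.

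**Figure D1:**
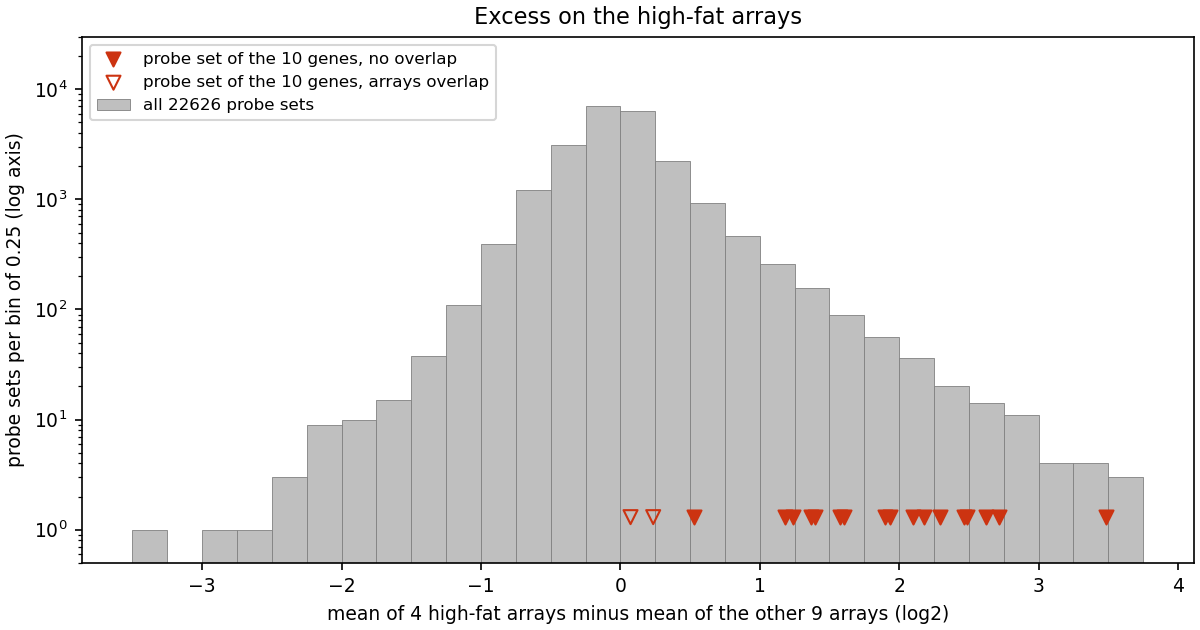
Histogram of the excess of the high-fat arrays (mean of 4 high-fat arrays minus mean of the other 9, log2, horizontal axis) over 22626 probe sets, with the number per bin of 0.25 on a log axis. Triangles mark the 19 probe sets of the 10 genes, filled where no high-fat array overlapped the others and open for the 2 probe sets of Rest that did, and they reach from 0.07 to 3.49.

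Zbtb7a, a BTB zinc finger repressor known for silencing fetal globin genes in red cell precursors, had the greatest excess. On high-fat diet its single probe set 1450093_s_at read 8.48 and 8.55 in wild-type and 8.76 and 8.48 in mutant mice. Normal diet gave 5.01 and 5.45 in wild type and 5.60, 5.65 and 5.49 in mutants. With butyrate the wild-type array read 4.08 and the mutant arrays 4.79, 4.93 and 4.73. The 4 high-fat arrays lay close together and 2.82 above the nearest of the others. High-fat minus normal diet came to 3.29 ± 0.17 (SE) in wild type, or 9.76-fold, and to 3.04 ± 0.15 in mutants. Against high-fat diet with butyrate the differences were 4.43 ± 0.20 and 3.80 ± 0.15, the former against 1 array.

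Kdm5a, a demethylase of histone H3, was measured by probe set 1452360_a_at alone. Its mean level lay at percentile 29.7 of all probe sets, just under percentile 30, the cut of a filter on low values. High-fat values were 6.31 and 6.25 in wild type and 6.63 and 6.71 in mutants. Values on normal diet were 3.92 and 3.59 in wild type and 4.15, 4.31 and 4.04 in mutants. Butyrate arrays read 3.63 in wild type and 3.26, 3.64 and 3.27 in mutants. High-fat arrays were high in both genotypes, and the lower arrays of normal and butyrate diets overlapped. The excess was 2.72, with high-fat minus normal diet at 2.52 ± 0.17 in wild type and 2.50 ± 0.15 in mutants, and high-fat minus butyrate at 2.65 ± 0.21 and 3.28 ± 0.15.

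Rest represses neuronal genes in cells that are not neurons, and its 3 probe sets differed in their pattern. At 1425565_at the high-fat arrays read 6.57 and 6.62 in wild type and 6.81 and 7.08 in mutants. The normal diet arrays read 4.47 and 3.96 in wild type and 4.47, 4.67 and 4.34 in mutants. The butyrate arrays read 3.52 in wild type and 3.71, 3.72 and 4.43 in mutants. All high-fat arrays were again apart from the rest, and mutant butyrate array 3 was the highest of its diet. The excess was 2.63 (6.17-fold). At 1425566_at, by contrast, high-fat values of 3.92 to 4.34 overlapped the other 9 arrays at 3.74 to 4.10, and at 1425564_at values of 3.06 to 3.67 overlapped 2.85 to 3.62. The excess of these probe sets was 0.24 and 0.07. Both were dim, with mean levels at percentiles 21.1 and 11.3 of all probe sets, against 34.7 for 1425565_at. These levels take in the high-fat arrays. On the other 9 arrays 1425565_at averaged 4.14, against 3.89 for 1425566_at and 3.23 for 1425564_at. Whether any of the 3 had signal over background was not tested. Annotation ties all 3 to the same sequence record, and where in the transcript each one hybridises was not analysed here.

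Nrip1, also called RIP140, is known as a corepressor of nuclear receptors in fat and liver metabolism. Probe set 1449089_at read 8.42 and 8.74 in wild type and 8.43 and 8.91 in mutants on high-fat diet. It read 6.86 and 6.71 in wild type and 6.51, 6.86 and 7.31 in mutants on normal diet. With butyrate it read 5.95 in wild type and 5.49, 5.83 and 5.50 in mutants. The 3 diets formed 3 separate ranges, with butyrate lowest. The second probe set of the same record, 1418469_at, ran from 6.51 to 7.29 on high-fat, from 5.06 to 5.92 on normal and from 5.20 to 6.44 on butyrate arrays. Its gap of 0.07 between high-fat and other arrays closed to -0.02 once each array was centred on its median. Its excess was 1.18 against 2.29, and high-fat minus butyrate in wild type was 0.31 ± 0.41 against 2.63 ± 0.30.

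Resf1 has 3 probe sets from 2 sequence records. On high-fat arrays 1437110_at read 7.04 and 6.93 in wild type and 7.19 and 6.83 in mutants. Normal diet arrays stood at 5.52 and 5.60 in wild type and 5.52, 5.53 and 5.34 in mutants. Those with butyrate stood at 3.41 in wild type and 4.31, 3.63 and 4.50 in mutants. Here too the diets formed 3 ranges without overlap, and butyrate arrays spread more widely than the others. High-fat minus normal diet was 1.42 ± 0.24 in wild type and 1.54 ± 0.22 in mutants, less than the 3.57 ± 0.29 and 2.86 ± 0.22 against butyrate. At 1427334_s_at the excess was 1.40 and the order of diets the same. At 1452397_at, of the same record, the excess was 0.53, the smallest among the 17 separated probe sets, and normal and butyrate arrays overlapped at 4.24 to 4.68 and 4.35 to 4.66.

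Klf3, a repressor that binds CACCC boxes and works through the co-repressor CtBP, was measured by 3 probe sets that followed each other closely. Wild-type high-fat arrays read 9.74 and 10.16 and mutant ones 10.04 and 10.21 at 1429360_at. On normal diet wild-type arrays read 8.55 and 8.14 and mutant ones 8.45, 8.57 and 8.85. The wild-type butyrate array read 7.10 and the mutants 7.68, 7.54 and 8.41. Mutant butyrate array 3 reached into the range of the normal diet, while the high-fat arrays stayed 0.89 above every other one. The excess was 1.89, 1.93 at 1421604_a_at and 1.61 at 1431630_a_at. High-fat minus normal diet in wild type was 1.61 ± 0.27, 1.63 ± 0.14 and 1.39 ± 0.15 in the same order. Across the 13 arrays the pairs of these probe sets had Pearson r of 0.95 to 0.99, a description of arrays that share their diet groups.

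Akap9, the protein kinase A anchor, had 2 probe sets. The high-fat arrays read 5.96 and 6.25 in wild type and 6.36 and 6.34 in mutants at 1437082_at. On normal diet they read 4.14 and 4.10 in wild type and 4.27, 4.01 and 4.14 in mutants. With butyrate they read 3.08 in wild type and 3.06, 3.11 and 3.75 in mutants. The 5 normal diet arrays spanned a narrow range, and mutant butyrate array 3 stood above the other 3 of its diet. The excess was 2.49 at this probe set and 1.24 at 1455151_at, where the high-fat arrays ran from 3.68 to 4.37 and the other 9 from 2.41 to 3.13. Mean levels lay at percentiles 28.6 and 10.7 of all probe sets. Both are under percentile 30, the cut of the filter on low values, and the latter was the dimmer.

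Iqgap2, an abundant scaffold of liver and gut epithelium, was represented by 1459894_at. Its high-fat arrays were at 9.01 and 9.42 in wild type and 9.33 and 9.24 in mutants. Its normal diet arrays were at 6.67 and 7.44 in wild type and 6.98, 6.97 and 6.98 in mutants. Its butyrate arrays were at 6.77 in wild type and 6.67, 6.45 and 6.16 in mutants. Normal and butyrate arrays overlapped, and all lay at least 1.57 below the high-fat arrays. High-fat minus normal diet was 2.16 ± 0.24 in wild type and 2.31 ± 0.21 in mutants.

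Epn1, epsin 1, was represented by 1427039_at. It stood at 10.08 and 10.11 in wild-type and 10.19 and 9.70 in mutant high-fat arrays. It stood at 8.22 and 7.98 in wild-type and 8.12, 8.06 and 8.05 in mutant normal diet arrays. It stood at 7.29 in the wild-type and 7.78, 7.88 and 7.85 in mutant butyrate arrays. Mutant high-fat array 2 was the lowest of its diet and still 1.48 above the other 9 arrays. Epn1 was the only one of the 10 genes, by its probe set with the highest mean, in which the mutant mean on high-fat diet lay below that of wild type.

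Ankhd1 showed the narrowest gap. Probe set 1419867_a_at read 6.95 and 7.36 in wild type and 7.37 and 7.47 in mutants on high-fat diet. Normal diet values were 5.87 and 6.47 in wild type and 6.23, 6.25 and 6.90 in mutants. Butyrate values were 4.27 in wild type and 5.05, 4.53 and 5.88 in mutants. Mutant normal array 3 came within 0.05 of the lowest high-fat array. After quantile normalization or centring of the arrays the ranges overlapped slightly (gaps of -0.004 and -0.04), so this probe set was no longer separated. The second probe set, 1448008_at, had a clear gap of 0.68, with 5.19 to 5.84 on high-fat diet and 3.75 to 4.51 on the other 9 arrays. Its mean level was lower, at percentile 29.2 of all probe sets. At both probe sets the normal and butyrate arrays overlapped.

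**Figure D2:**
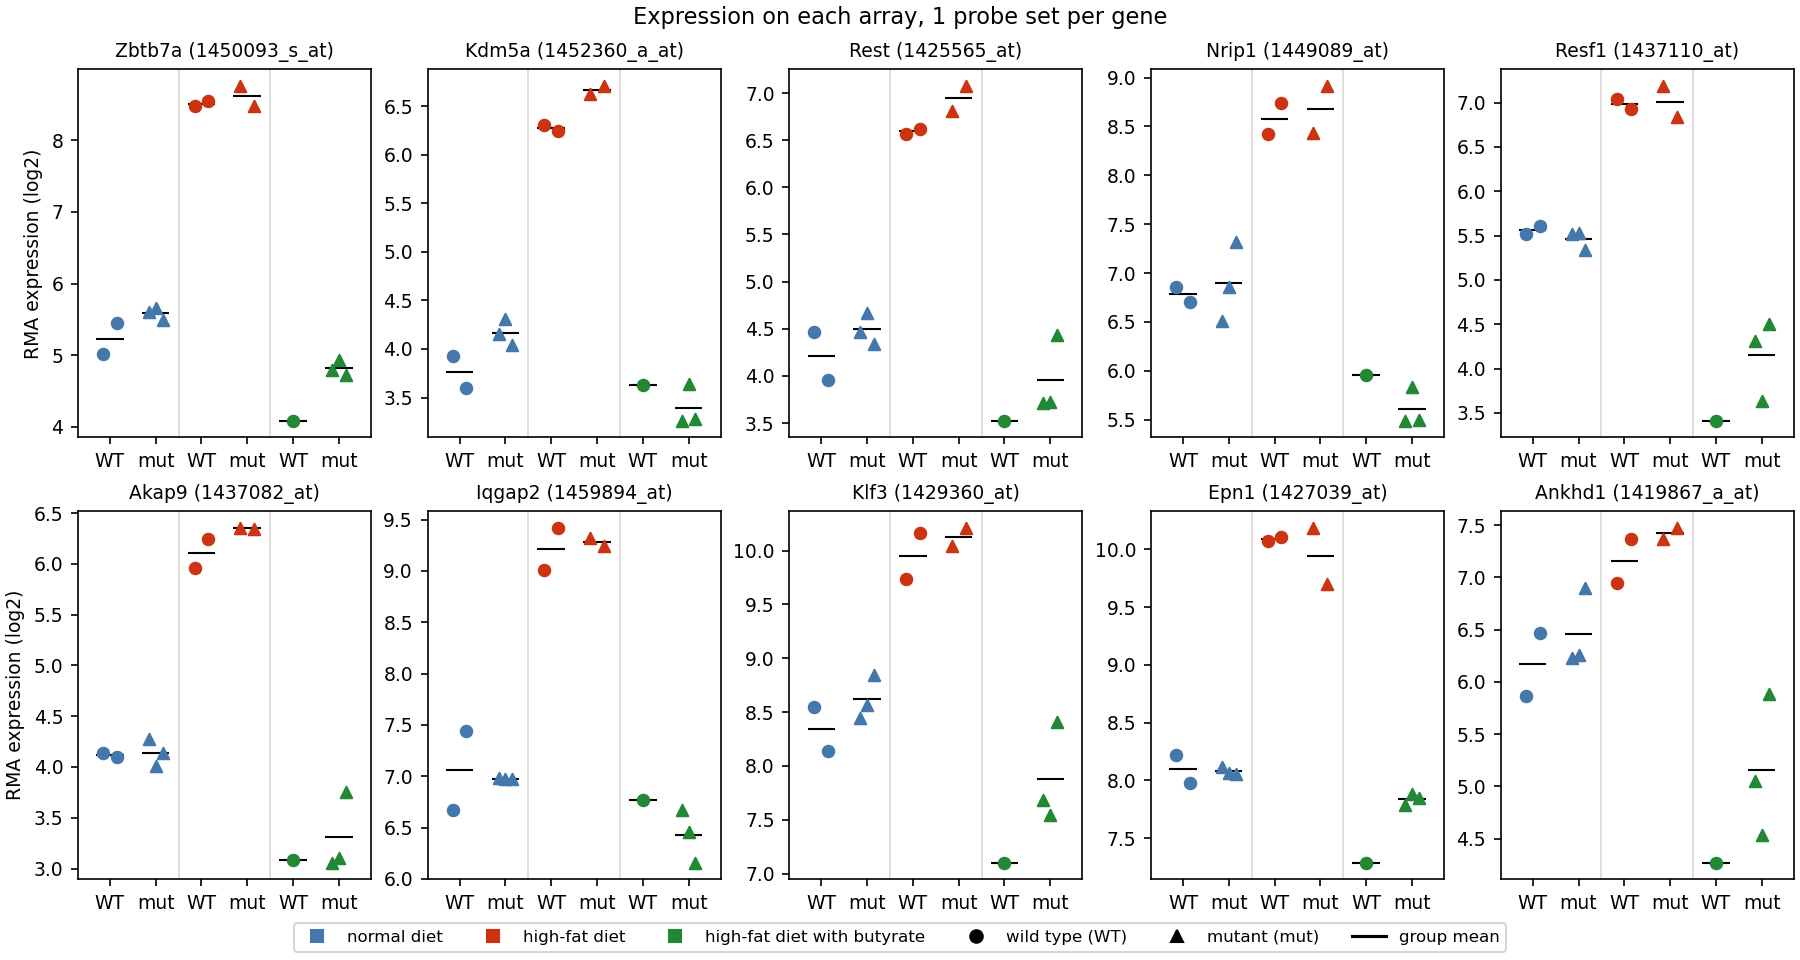
RMA expression (log2, vertical axis, scaled for each panel) of the probe set with the highest mean of each of the 10 genes. Each point is 1 array, circles are wild type (WT), triangles mutant (mut), colours are diets and bars are group means. High-fat arrays lie above all others in every panel, by 2.82 for Zbtb7a and by 0.05 for Ankhd1.

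By group means, both high-fat groups stood above both normal diet groups and these above both butyrate groups in 10 of 10 genes, with the probe set of the highest mean for each. The genes were chosen by high-fat values against both other diets, so the first part of this order was given. The second part rests on arrays that also served the choice, so it is a description and not a test. The share of all genes with this order was not counted. Normal diet minus butyrate had a median of 0.70 in wild type and 0.55 in mutants over the 19 probe sets. Over all probe sets the median was -0.007 and -0.005. Of the 19, 16 were above 0 in each genotype, a share that was not counted over all probe sets. Over the 19 probe sets the lowest normal diet array lay above the highest butyrate array in 8, against 5.13% of all probe sets. In 0 the reverse held, against 6.79%, and in 11 the arrays overlapped. Median differences over the 19 probe sets for high-fat minus normal diet were 1.42 in wild type and 1.54 in mutants, with -0.03 and 0.00 over all probe sets. For high-fat minus butyrate they were 2.59 and 2.25, with -0.04 and 0.00 over all. Both comparisons use the same 4 high-fat arrays. Among the butyrate arrays, mutant array 3 was the highest in 5 of the 10 genes and the wild-type array the lowest in 6.

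Of the 10 genes 6 had several probe sets, and in 5 of these all probe sets separated the high-fat arrays, Rest being the exception. Zbtb7a, Kdm5a, Iqgap2 and Epn1 had 1 probe set each, so for them a difference of the transcript and one of the probe set cannot be told apart. As a reference, 385 of 4956 genes with several probe sets had a probe set of greatest excess that separated the high-fat arrays and had an excess of at least 1. Of their 782 other probe sets 27.0% were separated, with a median excess of 0.21, and 30.3% had an excess below 0. All probe sets were separated in 69 of these genes, or 17.9%. Among the 9 probe sets of the 6 genes that remain beside the one of greatest excess, 7 were separated and the median excess was 1.24. Since the genes were picked by their values, this is a description of them and not a test.

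**Figure D3:**
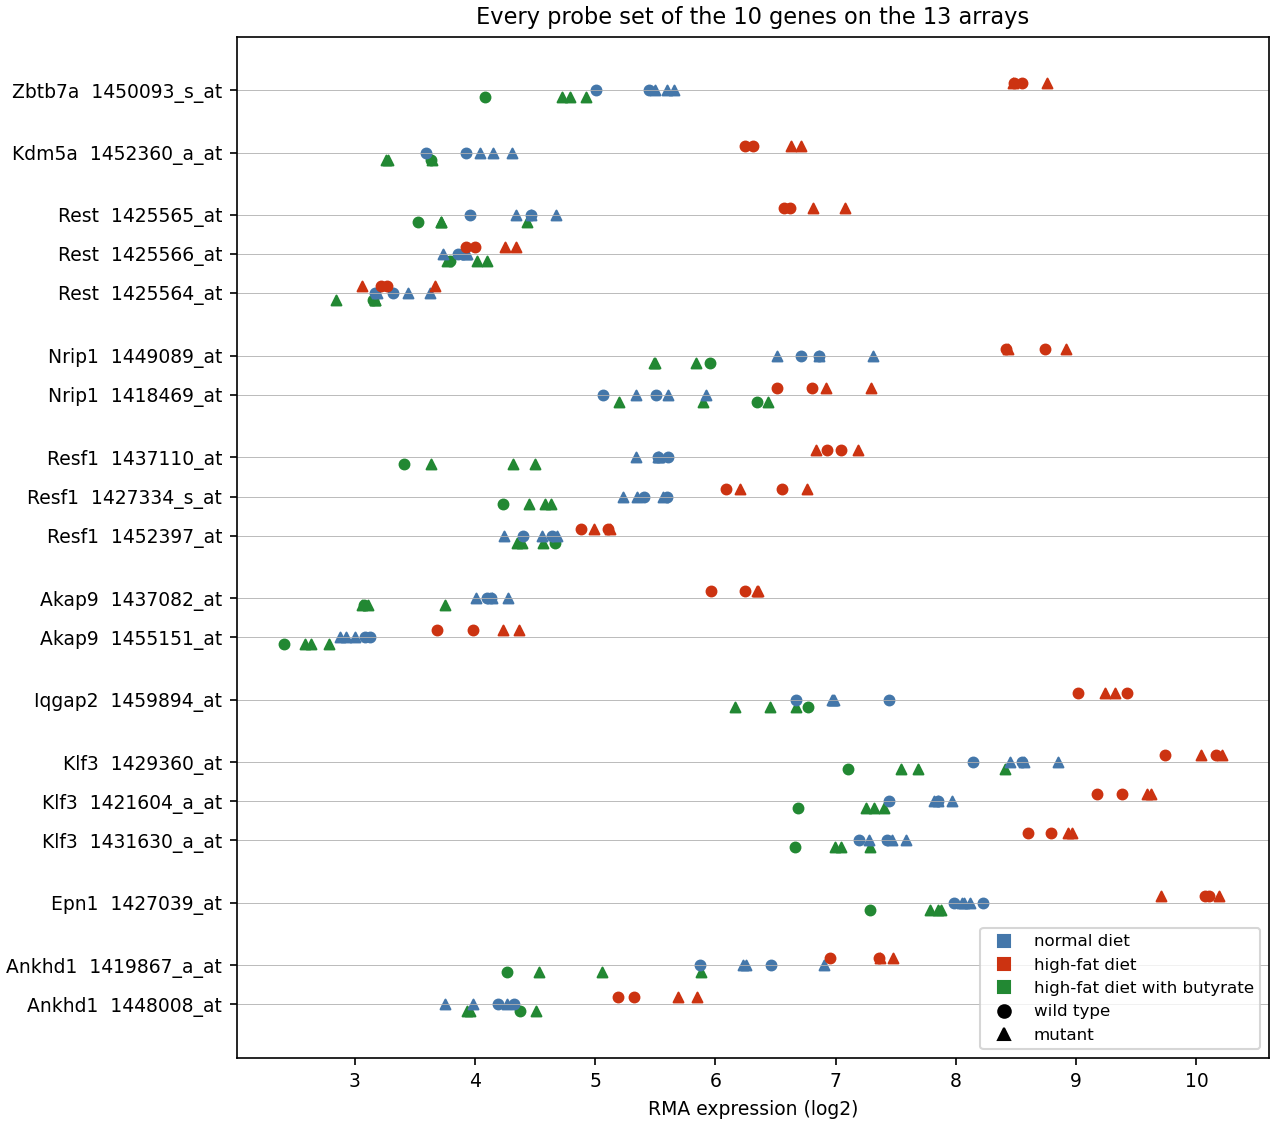
RMA expression (log2, horizontal axis) of all 19 probe sets of the 10 genes on the 13 arrays, 1 point per array, with diets in colours, circles for wild type and triangles for mutants. High-fat arrays stand to the right of all others in 17 rows and overlap them in the rows of Rest 1425566_at and 1425564_at, and positions of different rows are not comparable as levels.

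The probe sets with the highest mean of the 10 genes had like profiles over the arrays. Between them, Pearson r over the 13 arrays ran from 0.77 to 0.99 with a median of 0.94 over 45 pairs. After group means were subtracted it ran from -0.79 to 0.78 with a median of -0.01. Akap9 followed the mean profile of the 10 genes most closely (r = 0.995) and Ankhd1 least (r = 0.889). The 13 points share diet groups and array series, so these are descriptions without a test.

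Among 815 other genes with an SD of at least 0.5 over the arrays, the profile most like that mean was Efcab14, with r = 0.994 over 13 arrays and an excess of 2.00. It was followed by Jund, a subunit of the AP-1 transcription factor, at r = 0.987, whose high-fat arrays stood at 11.14 to 11.43 and others at 9.07 to 9.96. Ncstn, the nicastrin subunit of gamma-secretase, had r = 0.985, and Mob3b r = 0.980. Mtdh came next with r = 0.977, but only 1 of its 6 probe sets separated the high-fat arrays. Espn, an actin-bundling protein of microvilli, and the kinase Csnk1g1 had r = 0.976. Washc4, a subunit of the endosomal WASH complex, and the transcription factor Nfic had r = 0.975, and all of their 3 and 4 probe sets were separated. Tmcc3 closed the list at r = 0.974. In all, 42 of the 815 genes had r over 0.95.

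Mutant and wild-type mice did not differ beyond the threshold in any of the 19 probe sets. On high-fat diet the limma test gave 0 of 19 below an adjusted p of 0.05, where 0.0221% of all probe sets passed, and 5 of 19 below 0.05 before adjustment, where 10.6% of all did. The smallest adjusted p was 0.243. Differences, mutant minus wild type, were above 0 in 18 of 19, with a median of 0.25 against 0.03 over all probe sets. The share above 0 over all probe sets was not counted, and several of the 19 belong to the same gene. All rest on the same 2 arrays per genotype, and wild-type array 1 was the lowest high-fat array in 6 of the 10 genes. The 5 with an unadjusted p under 0.05 were Akap9 1455151_at (0.47 ± 0.13 SE), Ankhd1 1448008_at (0.51 ± 0.21), Kdm5a (0.39 ± 0.17), Rest 1425566_at (0.33 ± 0.14) and Klf3 1421604_a_at (0.33 ± 0.14). The probe sets of highest mean gave 0.25 ± 0.21 for Akap9, 0.26 ± 0.38 for Ankhd1, 0.35 ± 0.25 for Rest and 0.18 ± 0.27 for Klf3. For Zbtb7a the difference was 0.10 with a 95% interval of -0.26 to 0.47, so a genotype difference as large as its diet difference lies outside the interval.

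On normal diet 0 of 19 probe sets passed by limma (0.0133% of all) and 2 had an unadjusted p under 0.05 (11.6% of all). These were Kdm5a (0.41 ± 0.15 higher in mutants) and Zbtb7a (0.35 ± 0.15), and the smallest adjusted p was 0.343. With butyrate, where wild type had 1 array that was assumed to vary like the others, 0 of 19 passed (0% of all) and 6 had an unadjusted p under 0.05 (6.11% of all). In that comparison Zbtb7a was higher in mutants by 0.73 ± 0.19, Resf1 1437110_at by 0.74 ± 0.28, Epn1 by 0.55 ± 0.17 and the 3 probe sets of Klf3 by 0.45 to 0.78, with a smallest adjusted p of 0.810. Intervals were wide: over the 19 probe sets and this diet they reached from -1.35 to 1.84.

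With diet as a term, mutants minus wild type over all 13 arrays again gave 0 of 19 past the threshold by limma (0.292% of all) and 5 with an unadjusted p under 0.05 (15.2% of all). Klf3 1421604_a_at came nearest (0.37 ± 0.09, adjusted p = 0.0814), followed by Zbtb7a (0.37 ± 0.11, adjusted p = 0.133). The other 3 were Klf3 1431630_a_at (0.26 ± 0.09), Klf3 1429360_at (0.37 ± 0.16) and Rest 1425565_at (0.34 ± 0.14). Differences were above 0 in 16 of 19, with a median of 0.16 against 0.01 over all probe sets. Several of the 19 belong to the same gene, and the share above 0 over all probe sets was not counted. Whether the high-fat minus normal diet difference depended on genotype was tested as an interaction, which 0 of 19 probe sets passed (0.00884% of all; 2 with an unadjusted p under 0.05, against 5.26% of all). The 2 were Akap9 1455151_at, where the diet difference in mutants exceeded that in wild type by 0.64 ± 0.17 (adjusted p = 0.902), and Ankhd1 1448008_at, by 0.77 ± 0.29 (adjusted p = 0.913). At the brighter probe set of each gene the value was 0.22 ± 0.29 (Akap9 1437082_at) and -0.03 ± 0.51 (Ankhd1 1419867_a_at). A p that misses the threshold does not show that the genotypes were alike.

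**Figure D4:**
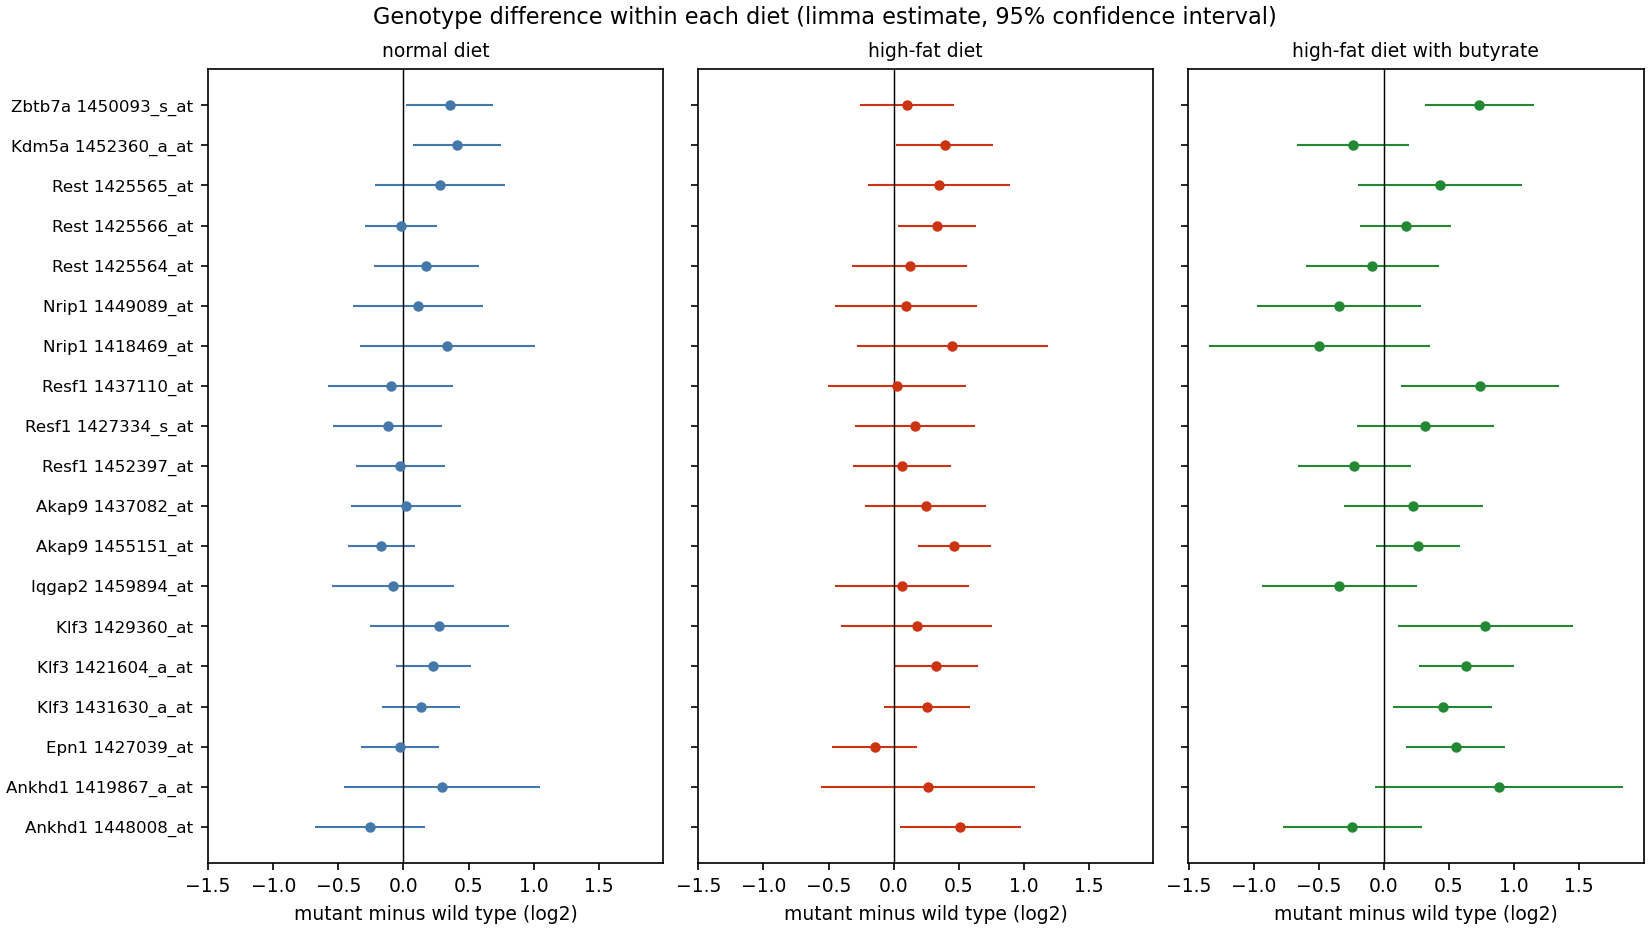
Mutant minus wild-type difference (log2, horizontal axis) of the 19 probe sets within each diet, as the limma estimate (point) with its 95% confidence interval (line). On high-fat diet 18 of 19 points lie above 0, a share that was not counted over all probe sets. The widest intervals are those with butyrate, where wild type had 1 array.

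Some paralogues of the 10 genes were higher on high-fat arrays and others were not or were lower. Kdm5c, a demethylase of the same family as Kdm5a, rose by 1.43 ± 0.17 against normal diet and by 1.67 ± 0.19 against butyrate at 1426497_at (limma adjusted p = 0.000105 and 8.18e-05), whereas its second probe set did not pass (0.09 and 0.34). Kdm5b rose by 1.10 ± 0.13 and 1.05 ± 0.15 at 1427143_at, and its other probe set did not pass (0.19 and 0.15). Both probe sets of Zbtb7b, a relative of Zbtb7a, rose in both comparisons, by 0.82 ± 0.09 and 0.87 ± 0.10 at 1455071_at. In Epn2, 1427225_at rose by 0.49 ± 0.12 and 0.66 ± 0.13 and its high-fat arrays did not overlap the others, while 1427226_at rose by 0.35 ± 0.12 against normal diet with overlap. Akap8, an anchoring protein of the nucleus, fell by 0.59 and by 0.98 at 1433669_at (adjusted p = 0.00277 and 0.000237), and at 1450983_at it fell by 0.66 against butyrate and was at -0.21 against normal diet. Epn3, Iqgap3 and all 5 probe sets of Iqgap1 overlapped between high-fat and other arrays, though Iqgap1 1417380_at rose by 0.76 ± 0.12 against butyrate. Ankrd17, the paralogue of Ankhd1, differed from normal diet in 0 of 5 probe sets by limma. Against butyrate it rose by 1.39 ± 0.12 at 1436775_a_at but fell by 0.31, 0.46 and 0.43 at 3 others.

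Around the 10 genes, 242 partner genes in 11 lists were considered, of which 197 were measured and tested. These lists were drawn up with earlier results on these arrays known. Against normal diet 47 rose (23.9%, against 12.8% of all genes by the same test) and 19 fell (9.64%, against 16.3% of all). Against butyrate 41 rose (20.8%, against 11.5%) and 42 fell (21.3%, against 20% of all). The comparisons share the 4 high-fat arrays, and, for each gene, its probe set with the highest mean was used.

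Among 29 nuclear receptors and coregulators, partners of Nrip1, 13 rose and 3 fell against normal diet, and 7 rose and 4 fell against butyrate. The median difference was 0.22 and 0.09, with -0.03 over all genes in either comparison. Rara, a retinoic acid receptor, rose by 1.02 ± 0.12 and 1.40 ± 0.14. Nr2f2 rose by 1.03 ± 0.15 and 1.22 ± 0.16, and Nr2f6 by 0.84 ± 0.10 and 0.76 ± 0.11. The other probe set of Nr2f6 was at -0.29 and -0.25 and did not pass. Ppara, the fatty acid sensor of the liver and gut, rose by 2.02 ± 0.22 against butyrate. Ncoa1, a coactivator, fell by 0.48 against normal diet.

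In the list of 20 REST and KDM5 co-repressor partners as many genes fell as rose against normal diet, 6 and 6, and 4 rose and 7 fell against butyrate. Besides Kdm5c and Kdm5b, Ehmt2, a histone methyltransferase, rose by 0.47 ± 0.09 against normal diet. Rbbp7, a histone-binding protein of such complexes, fell by 0.50 against normal diet. Hdac2, a histone deacetylase, fell by 0.91 against butyrate. Arid4b fell by 0.82 there, but 3 of its 5 probe sets passed in the opposite direction. Of 22 neuronal and neuroendocrine target genes of REST, 3 rose and 1 fell against normal diet and 2 rose and 2 fell against butyrate. The ion channel gene Hcn2 rose in both, by 0.46 ± 0.08 and 0.44 ± 0.09. Markers of enteric neurons and glia, cells that also express such targets, overlapped between diets in their mean level, at 4.94 to 5.21 on high-fat, 4.98 to 5.12 on normal and 4.86 to 5.02 on butyrate arrays (8 of 10 listed genes measured).

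Of 15 KLF and Sp factors, 5 rose and 1 fell against normal diet, and 4 rose and 3 fell against butyrate. Sp1, which binds GC boxes, rose by 0.88 ± 0.22 and 2.20 ± 0.24, and its other probe set was at 0.16 and 0.09. Klf5, a factor of proliferating crypt cells, rose by 0.33 ± 0.07 and 0.85 ± 0.08, but its second probe set fell by 0.75 against normal diet. Klf9 fell by 0.69 against normal diet at its probe set of highest mean, while 3 of its 7 probe sets passed in the other direction. Klf6 fell by 0.66 and Klf10 by 0.53 against butyrate, and another probe set of Klf6 stood 3.52 higher on high-fat diet. Among 20 BTB zinc finger genes 3 rose and 0 fell against normal diet and 6 rose and 4 fell against butyrate, with Patz1 up by 0.53 ± 0.12 in the former. Zbtb14 fell by 0.70 and Zbtb18 by 0.66 against butyrate.

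Resf1 takes part in retroelement silencing, of which 13 other genes were measured. Of these 1 rose and 3 fell against normal diet, and 0 rose and 6 fell against butyrate. Cbx1, a heterochromatin protein, fell by 0.72 and by 0.81. Dnmt1, the maintenance DNA methyltransferase, fell by 0.45 and by 0.50. Setdb1, the histone methyltransferase of this silencing, fell by 0.37 against butyrate, while another of its 3 probe sets stood at 0.31 without passing. The median difference of the list was -0.10 and -0.26.

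Among 18 genes of protein kinase A anchoring and the centrosome, partners of Akap9, 6 rose and 2 fell against normal diet and 5 rose and 3 fell against butyrate. Prkar2a, the regulatory subunit that binds anchoring proteins, rose by 1.83 ± 0.15 and 1.81 ± 0.17. Prkaca, a catalytic subunit, rose by 1.18 ± 0.12 and 1.76 ± 0.14. Pde4dip, a large protein of the Golgi and centrosome, rose by 1.58 ± 0.12 and 1.65 ± 0.13 while its other probe set was at 0.21 and -0.06. Akap2, another anchoring protein, rose by 0.66 ± 0.08 and 0.83 ± 0.09.

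In clathrin-mediated endocytosis, the pathway of Epn1, 5 of 23 genes rose and 0 fell against normal diet, and 7 rose and 5 fell against butyrate. Ap2a1, a subunit of the adaptor AP-2, rose by 1.03 ± 0.08 and 1.24 ± 0.09. Dnm2, the dynamin that cuts vesicles off, rose by 0.71 ± 0.09 and 0.85 ± 0.10. The kinase Gak rose by 0.66 ± 0.08 against normal diet, and its other probe set was at -0.13 and did not pass. Cltb, a clathrin light chain, rose by 0.63 ± 0.11 against butyrate, and Itsn2 fell by 0.68, each with a probe set that passed in the opposite direction.

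In the Hippo list, partners of Ankhd1, 1 of 17 rose and 2 fell against normal diet and 1 rose and 5 fell against butyrate. Tead3, a transcription factor that carries Yap, rose by 0.78 ± 0.12 and 0.91 ± 0.13. Against butyrate Wwtr1 fell by 0.53 and Mob1b by 0.48, but another probe set of Wwtr1 passed in the opposite direction. Of 7 nuclear long noncoding RNAs, Malat1 rose by 0.71 ± 0.14 and 2.26 ± 0.16, and Neat1 fell by 0.87 and by 1.58. Malat1 is an RNA of nuclear speckles and Neat1 the core of paraspeckles. Snhg11 fell by 0.82 against butyrate.

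**Figure D5:**
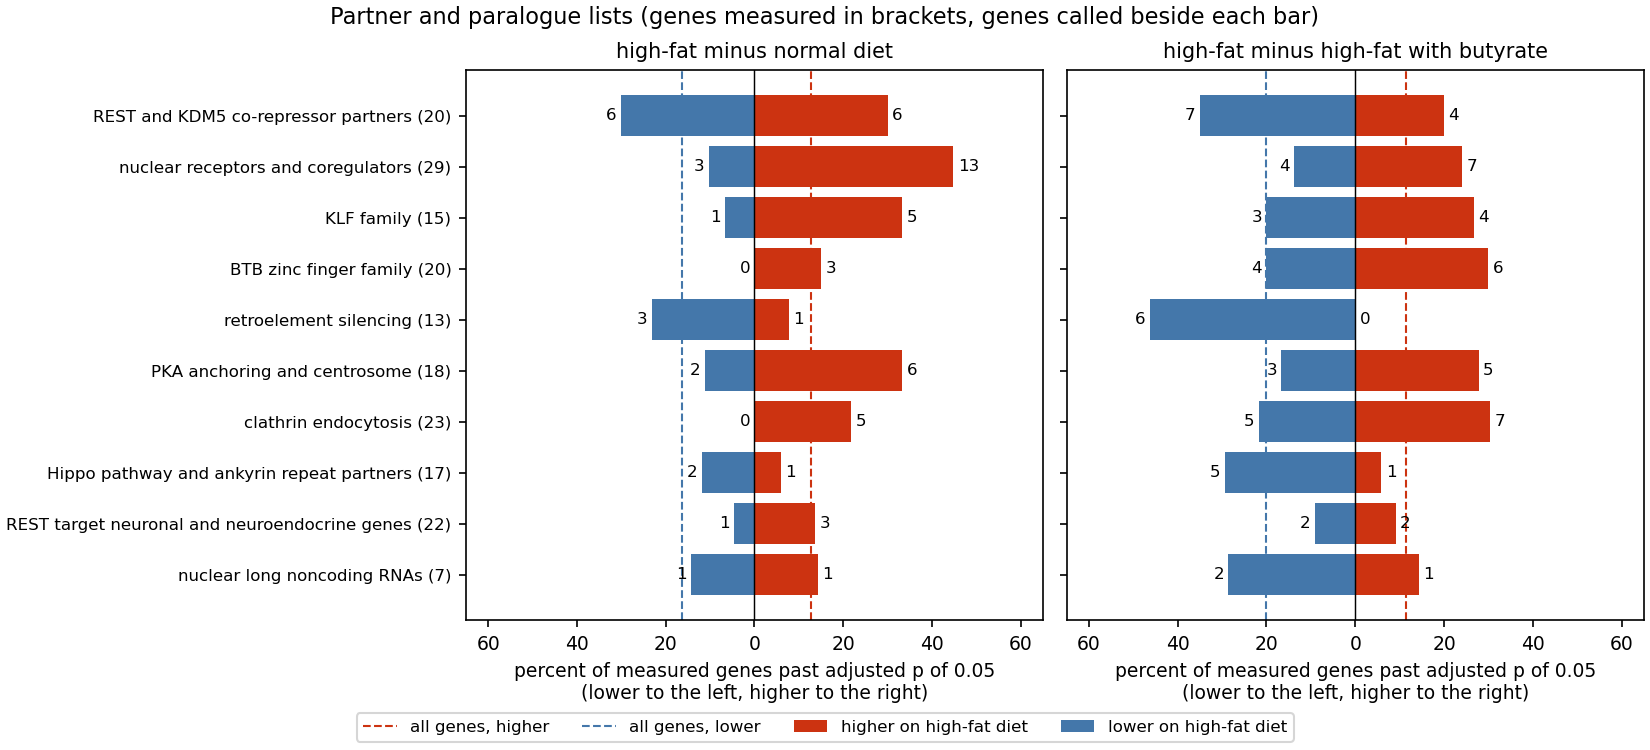
Percent of the measured genes of 10 partner lists that passed an adjusted p of 0.05 by limma, higher (to the right) or lower (to the left) on high-fat diet, against normal diet (left panel) and against high-fat diet with butyrate (right panel). Numbers beside the bars are genes, and dashed lines give the same percent over all 12393 genes. The nuclear receptor list has 13 of 29 genes higher against normal diet and the retroelement silencing list 6 of 13 lower against butyrate.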

How the data were processed

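Expression was measured in 13 arrays of mouse duodenum. The deposited values are on a log2 scale and were made by the authors with RMA in Affymetrix Expression Console 1.1, per the submitters' processing notes. The labels name a whole-transcript labelling kit, while the probe set names are those of a 3′ array, and the effect of this on the values was not tested. Of 22690 probe sets, 64 controls were left out and 22626 tested, of which the platform annotation gave 20380 one symbol, 691 several and 1555 none. Values were used as deposited. The series' design speaks of mice, but no label states 1 animal per array. The p-values therefore rest on the variation among arrays, part of which may be technical.

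All 13 arrays entered 1 fit with 6 genotype-by-diet groups, or with diet and genotype as terms for the comparison over 3 diets, in limma 3.58.1 under R 4.3.3 (eBayes with trend, Benjamini-Hochberg adjustment over all probe sets, threshold 0.05). The script was tested on simulated data. A gene was represented by its probe set with the highest mean. The members, lists and tests were chosen with earlier results of these data known. Up to 4 genes with the smallest p among those past the threshold per list and comparison could be named, and those that lost their call under an alternative are named with the alternatives. The results of 1 list are not reported here. Profiles were compared over genes with an SD of at least 0.5, without predicted gene models, Rik names and clone or accession symbols. Promoter windows of 250 bases came from RefSeq, build GRCm38.p6. Alternatives were quantile normalization, median centring, means over probe sets, a filter on low values, eBayes without trend, array weights, the compared groups alone, a replicate block and leaving out each array. Identically numbered arrays of the 2 genotypes were checked for pairing.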

Additional observations from a re-analysis of the deposited data

How the results depend on the processing

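Calls of the partner genes named by the rule did not reverse under the alternatives run, but other probe sets of some, among them Arid4b, Klf9, Klf5, Klf6, Cltb, Itsn2, Mob1a, Ptpn11 and Wwtr1, passed in the opposite direction. Calls of Epn2, Iqgap1, Ankrd17, Akap8 and the cell and region markers were not recomputed. The excess of Rest 1425564_at, near 0, ran from -0.05 to 0.15 when 1 array was left out. With the mean of the probe sets of a gene, 10 of 10 genes were separated, and the median of high-fat minus butyrate in wild type was 2.34. Of the 10 genes most like the mean profile, 4 were shared with Spearman's correlation and 5 with r over the 6 group means. Leaving out 1 array at a time, which cannot undo a separation, gave a median excess of 1.76 to 2.00, and medians of 1.39 to 1.52 (wild type) and 1.54 to 1.63 (mutants) against normal diet and of 2.47 to 2.65 and 2.08 to 2.32 against butyrate. It left 0 of 19 probe sets past the threshold in each of the 5 genotype tests. Partner genes higher numbered 36 to 50 against normal diet and 29 to 46 against butyrate, and lower 15 to 23 and 34 to 44. The excess of Akap9 1455151_at was 1.37 without wild-type high-fat array 2. Arrays with the same replicate number did not deviate together (r = -0.04 on high-fat, -0.25 and -0.35 on normal diet), so these replicate numbers were not taken as pairs. With a replicate block, which leaves out the wild-type butyrate array, 0 of 19 probe sets passed in the genotype tests, and 42 partner genes were higher and 18 lower against normal diet. Calls of Actn4, Hip1r, Klf16, Mob1a, Mphosph8, Nefh, Ptpn11, Snap25, Stmn3, Syn1, Trim28 and Zbtb45 were lost in at least 1 alternative, for which the cause was not tested. The wild-type butyrate group has 1 array, without which its comparisons cannot be made, and signal over background was not analysed here.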
